A study of Mus musculus with 18 samples.

Results

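Levels of 10 genes that make, recycle, break down or spend glutathione were measured in the RPE of mice, the retinal pigment epithelium on which photoreceptors depend: Slc7a11, Gclc, Gclm, Gss, Gsr, Ggt1, Gpx1, Gpx3, Gpx4 and Gpx8. They were chosen on their function with their levels in all 18 libraries known, so their values are given as a description. No p-value is printed for a single member, and whether a member was called in the fit over all genes is stated without reading support from it. They are 10 of the 21859 rows of the count table, and all 10 were among the 15944 genes that passed the filter on low counts. RNA was measured by bulk sequencing of polyA RNA in 4 groups. Young is RPE of young mice (7 libraries) and Old is RPE of aged mice (4 libraries), with no vector named for either in the labels. Old control is RPE of aged mice given AAV2-tTA (3 libraries). Old OSK is RPE of aged mice given AAV2-tTA;TRE-OSK (4 libraries). The vectors were packaged as AAV2, a serotype of adeno-associated virus. The transactivator tTA, which tetracycline controls, acts on the TRE promoter, and OSK names the transcription factors Oct4, Sox2 and Klf4. Both vector groups share age and tTA, and no group of young mice with a vector was analysed here. Ages, doses, strain, the promoter that drives tTA and the times after injection are not given in the sources used here. The labels do not say that libraries of a group come from separate mice, so the spread between them may in part be technical.

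Glutathione is a tripeptide of glutamate, cysteine and glycine that serves as the main small thiol of the cell. Cystine enters through the exchanger whose light chain is Slc7a11, glutamate-cysteine ligase (the catalytic subunit Gclc with the modifier Gclm) joins glutamate to cysteine in the rate-limiting step, and glutathione synthetase (Gss) adds glycine. Glutathione peroxidases use glutathione to reduce peroxides, glutathione reductase (Gsr) restores the oxidised form with NADPH, and gamma-glutamyltransferase 1 (Ggt1) cleaves glutathione outside the cell. The RPE takes in lipid-rich outer segment membranes every day and is known for a high demand on these defences.

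The sequence before the start is printed for the members that held a searched motif: Gclm and Ggt1, which were called lower in Old, and Slc7a11, whose level varied 28.3-fold among the Young libraries. RefSeq windows on GRCm38.p6, from 250 bases before to 50 after a start, matched 8 of the 10 members with 14 windows. Gclc and Gsr had no entry. Each window was searched on both strands for TGACNNNGC, the core of the antioxidant response element bound by NRF2, and for TGATGNAA, the amino acid response element bound by ATF4. The first was found in 4 of the 14 member windows, 3 of them of Ggt1, and in 12.4% of all 32851 windows of the same length. By gene, it was found for Gclm and Ggt1 among the 8 matched members, and for 14% of all 27025 genes. The second was found in 1 of the 14 member windows and in 3.97% of all windows. By gene, it was found for Slc7a11 alone among the matched members, and for 4.51% of all genes. Capitals mark the matches, and sequences run 5′ to 3′ on the strand of the gene. The Gclm stretch holds the first motif on the opposite strand, 134 bases before the start. The Slc7a11 stretch holds the second motif on its own strand 66 bases before the start and again on the opposite strand 47 bases before it. Of the 4 windows with which Ggt1 was matched, 3 held the first motif, and the matches at 36 and 83 bases before their starts are shown with 30 bases on each side. The third Ggt1 match, TGACACAGC, began 41 bases past the transcription start, near the end of the window chr10:75563882-75564181. A match is a description of the letters, not a bound site.
Gclm, the 250 bases before the start, chr3:122245307-122245556, plus strand: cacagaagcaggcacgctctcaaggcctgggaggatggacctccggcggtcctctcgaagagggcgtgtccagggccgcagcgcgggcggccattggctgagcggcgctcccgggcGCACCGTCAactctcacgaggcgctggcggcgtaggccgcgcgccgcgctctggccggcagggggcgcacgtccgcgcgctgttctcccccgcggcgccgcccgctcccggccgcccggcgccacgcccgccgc
Slc7a11, the 250 bases before the start, chr3:50443614-50443863, minus strand: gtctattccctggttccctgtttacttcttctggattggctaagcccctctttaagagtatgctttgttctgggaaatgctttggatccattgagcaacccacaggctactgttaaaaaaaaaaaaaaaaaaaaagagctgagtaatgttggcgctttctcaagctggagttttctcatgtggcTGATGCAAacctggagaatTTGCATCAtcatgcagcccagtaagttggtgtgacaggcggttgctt
Ggt1, from the window chr10:75568412-75568711, plus strand: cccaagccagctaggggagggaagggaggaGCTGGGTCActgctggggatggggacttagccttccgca
Ggt1, from the window chr10:75571310-75571609, plus strand: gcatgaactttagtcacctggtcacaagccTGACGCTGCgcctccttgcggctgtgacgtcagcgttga

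Library totals lay between 18104828 and 32348136 counts, and no member had fewer than 48 counts in any library. Pou5f1, which encodes Oct4, averaged 75.1 CPM (TMM-scaled counts as edgeR's cpm gives them) in the Old OSK group and 0.651 CPM in the control group. All 10 markers of RPE had counts in every library, and their summed level ran from 40020 to 65470 CPM in Young, 27270 to 47420 in Old, 20630 to 62260 in Old control and 15740 to 30020 in Old OSK. The 8 rod markers summed to 142.5 to 2734 CPM in Young, 1889 to 6840 in Old, 1439 to 17220 in Old control and 2572 to 14490 in Old OSK. Old control replicate 2 (17220 CPM) and Old OSK replicate 4 (14490 CPM) stood apart from the rest in these rod transcripts. Members whose call between the vector groups changed without these libraries are given with and without them. This comparison was chosen after the data had been seen. Other log2 fold changes moved without a change of call, and not all are printed. Gpx4 in Old control against Old, for example, went from 0.33 to 0.56, and Slc7a11 between the vector groups from 0.27 to 0.72. The 9 markers of macrophages and other immune cells summed to 70.91 to 114.7 CPM in Young and to 348.8 to 825.9 CPM over the other 11 libraries. Library names of Young replicates 5 to 7, Old control replicates 2 and 3 and Old OSK replicate 4 carry a letter M that the labels do not explain, and no Old library does. Transcripts of 4 Y-linked genes summed to 156.7 to 258.4 CPM in those 6 libraries and to at most 4.453 CPM in the other 12, so the share of libraries at the higher Y-linked level differed between the groups compared: 3 of 7 in Young, 0 of 4 in Old, 2 of 3 in Old control and 1 of 4 in Old OSK. In bulk RNA, fewer cells of a type and less RNA per cell cannot be told apart.

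Per kilobase of exon, the peroxidases stood above the enzymes of synthesis. The length was that of all annotated exons of a gene merged, from 1048 bases for Gpx8 to 13922 for Slc7a11. It is not the length of the transcripts present, so the order of the genes may depend in part on the annotation. In Young, Gpx4, which reduces lipid peroxides in membranes, had a level of 750 ± 166 CPM per kb (SD, n = 7) and Gpx3, the secreted peroxidase, 457 ± 354 CPM per kb. Gpx1, the abundant cytosolic and mitochondrial peroxidase, followed at 76 ± 7.92 CPM per kb, Gpx8, a peroxidase of the endoplasmic reticulum membrane, at 48.4 ± 7.84, and Ggt1 at 40.1 ± 4.86. Gclc (21 ± 1.72), Gsr (19.8 ± 3.59) and Gclm (19.6 ± 2.39) lay within each other's spread. Gss (5.03 ± 0.699) and Slc7a11 (2.18 ± 1.83) were lowest. Neighbours in this order whose mean ± SD overlapped were Gpx4 and Gpx3, Gpx8 and Ggt1, and the 3 enzymes Gclc, Gsr and Gclm. By the range of the Young libraries, Gpx3 (27.9 to 1050 CPM per kb) also overlapped Gpx1 (65.7 to 89.5). Gss (3.79 to 5.73) likewise overlapped Slc7a11 (0.194 to 5.49). In Old OSK, Ggt1 had a level of 7.61 ± 1.39 CPM per kb (n = 4), below Gclc (12.9 ± 1.08) and Gclm (11.8 ± 1.23), and beside Gss at 9.3 ± 2.3. Gpx4 (960 ± 111) and Gpx3 (683 ± 118) led in that group too.

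**Figure D1:**
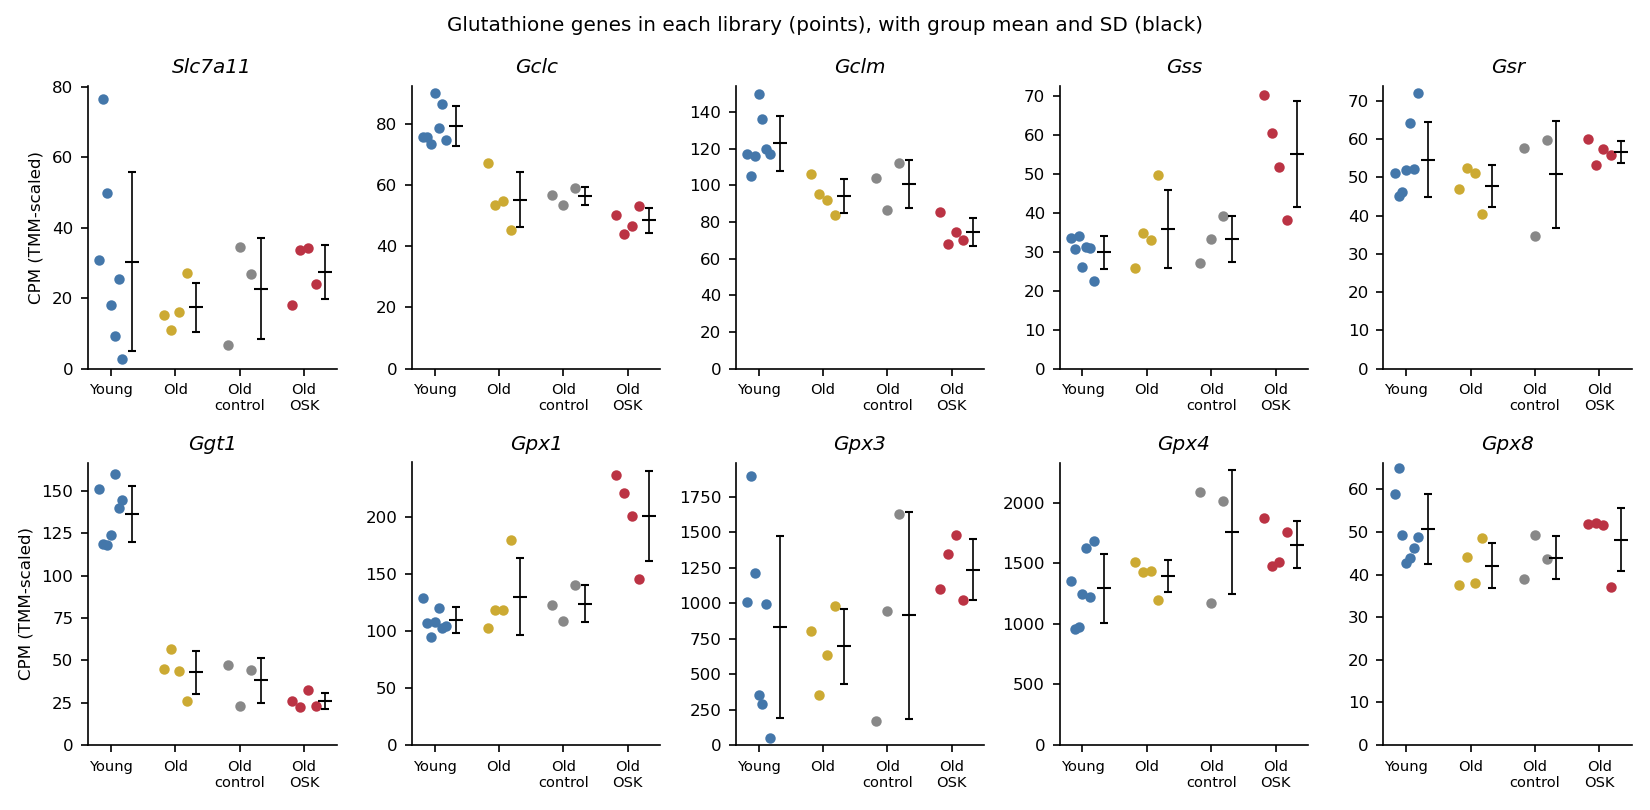
Level of each of the 10 genes in CPM (vertical axis, linear, from 0) in every library of the 4 groups (points), with the group mean and SD in black. Ggt1 lay between 118 and 160 CPM in Young and at or below 56.9 CPM in the other 11 libraries, while Gpx3 and Slc7a11 spread most within Young.

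Ggt1 had the largest difference from Young of the 10 genes. The 7 Young libraries had 118 CPM at the lowest, 140 at the median and 160 at the highest. The Old libraries had 45.1, 56.9, 43.7 and 26.3 CPM for replicates 1 to 4, and the Old control libraries had 47.3, 23 and 44.4 CPM for replicates 1 to 3. Old OSK libraries had 26.1, 22.2, 32.6 and 22.9 CPM. Every library from an old mouse lay below every Young library, with or without a vector, and the old groups overlapped each other. Ggt1 lies at chr10:75561604-75586200 on GRCm38 (GENCODE M21, plus strand). Old stood at 0.314 of Young, a log2 fold change of -1.67 (SE 0.21), and was called lower at an adjusted p under 0.05 over all genes in edgeR. All 11 fits that each left out 1 library of these groups kept it, where the log2 fold change ran from -1.83 to -1.49. Among libraries without M alone Ggt1 was also called lower.

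Between Old OSK and Old control, Ggt1 differed by a log2 fold change of -0.56 (SE 0.24) and was not called. Old control replicate 2 (23 CPM) lay inside the Old OSK range. Without that library the log2 fold change was -0.85 and the gene was called, and without both rod-rich libraries it was -0.81 and called. Old control differed from Old by -0.17 (SE 0.24, not called). Old OSK against Young, which shares its libraries with the comparisons above, had a log2 fold change of -2.40 (SE 0.22), a level of 0.19 of Young.

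Both ligase subunits had lower levels in Old than in Young. Gclc (chr9:77754535-77794485, plus strand) had 73.4 CPM at the lowest, 75.6 at the median and 90 at the highest in Young, and 67, 53.4, 54.8 and 45.3 CPM in Old replicates 1 to 4. Old control libraries had 56.6, 53.4 and 59 CPM, and Old OSK libraries had 50.3, 44, 46.5 and 53.2 CPM. No library of the 3 old groups reached the lowest Young library. The log2 fold change of Old against Young was -0.52 (SE 0.09), called lower, a call kept in all 11 fits without a library (-0.63 to -0.44). Among libraries without M alone, 4 against 4, it was -0.50 and not called.

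Gclm (chr3:122245557-122270732, plus strand), whose product makes the ligase more active, had 105, 117 and 150 CPM as the lowest, median and highest Young libraries. Old replicates 1 to 4 had 106, 95.4, 92 and 83.7 CPM, so that Old replicate 1 fell within the Young range. Old control libraries had 104, 86.4 and 112 CPM and Old OSK libraries 85.3, 67.9, 74.6 and 70 CPM. The log2 fold change of Old against Young was -0.38 (SE 0.11), called lower. Of the 11 fits that left out a library 4 kept this call. It was lost without Young replicate 4 (-0.33), 5 (-0.36), 6 (-0.39) or 7 (-0.39) and without Old replicate 2 (-0.39), 3 (-0.37) or 4 (-0.33). It was also lost among libraries without M alone (-0.36), with M as a covariate (-0.40), with median-ratio size factors (-0.38), with no low-count filter (-0.38) and in a fit of Young and Old alone (-0.36). Exons of Gclm overlap those of Gm17494 on the other strand and of the pseudogene Gm6061, and reads of these genes may not be told apart.

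Old OSK was lower than Old control for both subunits in the fitted values, with neither called. All 4 Old OSK libraries lay below all 3 Old control libraries for Gclm (log2 fold change -0.44, SE 0.13) and for Gclc (-0.22, SE 0.11). The closest pair for Gclc was 53.2 CPM in Old OSK replicate 4 and 53.4 CPM in Old control replicate 2. Without Old control replicate 2, Gclm was called lower (-0.57), and without both rod-rich libraries it was -0.55 and called, while Gclc was not called in any fit of this comparison. Old control differed from Old by 0.03 (SE 0.11) for Gclc and 0.10 (SE 0.13) for Gclm, neither called. Against Young, Old OSK stood at -0.71 (SE 0.10) for Gclc and -0.73 (SE 0.11) for Gclm, both called lower.

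Gss, which completes the tripeptide, had the opposite sign from the ligase in Old OSK. Young had 22.4, 30.9 and 33.9 CPM as lowest, median and highest, Old had 25.9, 34.7, 33.1 and 49.6 CPM, and Old control had 27.2, 33.3 and 39.2 CPM. Old OSK libraries had 70.1, 60.3, 51.7 and 38 CPM. All 4 Old OSK libraries lay above all 7 Young libraries, and replicate 4, the one with M and with many rod transcripts, lay below Old control replicate 3. The log2 fold change was 0.73 (SE 0.22) against Old control, not called, and 0.88 (SE 0.18) against Young, called higher. Without Old OSK replicate 4 the difference from Old control was 0.83 and called, and without both rod-rich libraries it was 0.83 and called. Old against Young gave 0.27 (SE 0.18) and Old control against Old gave -0.11 (SE 0.22), neither called. Gss (chr2:155563181-155592810, minus strand) shares exon bases with Acss2 on the plus strand, and without a stated strand setting their reads cannot be told apart. Acss2 stood at 0.68 (SE 0.22) in Old OSK against Young (edgeR adjusted p = 0.0188) and at 0.65 (SE 0.28) in Old OSK against Old control (edgeR adjusted p = 0.155).

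Gpx1 (chr9:108338903-108340343, plus strand) had the same order of groups as Gss. Young had 94.7, 107 and 129 CPM as lowest, median and highest, Old had 103, 119, 119 and 180 CPM, and Old control had 123, 109 and 141 CPM. Old OSK libraries had 237, 221, 201 and 146 CPM, all above the Old control and Young libraries, while Old replicate 4 at 180 CPM lay inside the Old OSK range. The log2 fold change was 0.70 (SE 0.18) against Old control, not called, and 0.88 (SE 0.15) against Young, called higher. Without Old OSK replicate 4 the difference from Old control was 0.78 and called, and without both rod-rich libraries it was 0.69 and called. In Old against Young the log2 fold change was 0.25 (SE 0.15) and in Old control against Old it was -0.07 (SE 0.18), neither called.

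Of the 10 genes, 0 were called higher and 3 lower in Old against Young, where 5.4% of all genes tested were called higher, 4.16% lower and 9.56% in either direction. Between Old OSK and Young 2 were called higher and 3 lower, where 25.1% of all genes were called higher, 21.3% lower and 46.4% in either direction. In Old OSK against Old control 0 were called, against 0.728% of all genes. There 4 of the 10 had an unadjusted p under 0.05 in edgeR, as did 4194 of the 15944 genes tested. DESeq2 called 3 of the 10, Gss and Gpx1 higher and Gclm lower, and 1603 genes in all. In Old control against Old 0 members and 0% of all genes were called, and 0 members had an unadjusted p under 0.05 (DESeq2 called 0 members). The sign of that comparison changed in some fit for every member but Gclm and Gpx4. Because the members were chosen with these values known, nothing is read from the counts. Median log2 fold changes of the 10 genes and of all genes tested were -0.26 and -0.00435 in Old against Young, 0.14 and -0.03 in Old OSK against Old control, 0.08 and 0.04 in Old control against Old, and -0.01 and 0.06 in Old OSK against Young.

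**Figure D2:**
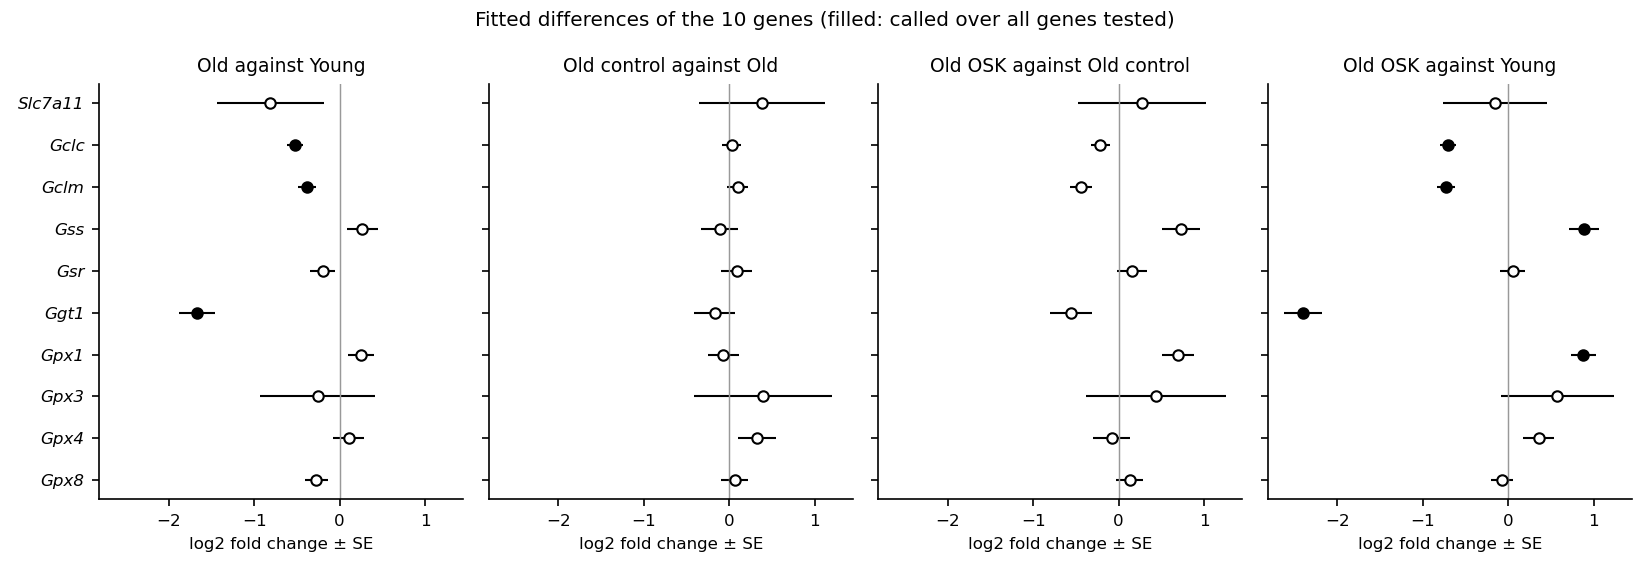
Fitted log2 fold change (horizontal axis) with its SE for the 10 genes in the 4 comparisons, filled where the gene was called over all genes tested. Gclc, Gclm and Ggt1 lay left of 0 in both comparisons with Young, and the bars of Slc7a11 and Gpx3 were the longest.

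Marker levels moved beside these differences. In Old against Young, 8 of the 9 immune markers were called higher and 1 of the 10 RPE markers lower, with 0 of 8 rod markers called and 1 of 6 Müller glia markers lower. Between Old OSK and Young, all 9 immune and all 8 rod markers were called higher and 8 of the 10 RPE markers lower. Called there too were 3 of 5 cone markers, higher, and 3 of 7 stroma, 2 of 6 Müller glia and 1 of 5 melanocyte markers, lower. In Old OSK against Old control and in Old control against Old no marker of any cell type list was called, and the rod sums of the vector groups overlapped. Markers of stroma summed to 173.8 to 349 CPM in Young and 118.2 to 204.7 CPM in Old, with 2 of 7 called lower. No marker was at 0 in all libraries. The part of other cells in the levels of the members was not tested.

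Slc7a11 and Gpx3 varied within groups more than between them. Gpx3 (chr11:54902453-54910377, plus strand) had 1010, 1900, 1210, 350, 292, 993 and 50.6 CPM in Young replicates 1 to 7, a 37.6-fold range, backed by 899 counts in the lowest library and 59252 in the highest. Old had 807, 355, 638 and 980 CPM, Old control had 171, 948 and 1630 CPM, and Old OSK had 1100, 1350, 1480 and 1020 CPM. The Old, Old control and Old OSK values lay within the range of Young. The log2 fold changes of Gpx3 were -0.26 (SE 0.67) in Old against Young, 0.44 (SE 0.82) in Old OSK against Old control, 0.40 (SE 0.81) in Old control against Old and 0.58 (SE 0.66) in Old OSK against Young, none called. The first turned to 0.09 without Young replicate 2, the second to -0.06 without Old control replicate 1 and the third to -0.31 without Old control replicate 3.

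Slc7a11 (chr3:49892526-50443614, minus strand) had 30.8, 76.5, 49.8, 18.1, 9.32, 25.4 and 2.7 CPM in Young replicates 1 to 7, a 28.3-fold range. Old had 15.3, 10.9, 16.1 and 27 CPM, Old control had 6.7, 34.4 and 26.9 CPM, and Old OSK had 18.1, 33.5, 34.1 and 23.9 CPM. Again all groups overlapped, and Young replicate 2 was the highest and Young replicate 7 the lowest for both genes. The log2 fold changes of Slc7a11 were -0.81 (SE 0.63) in Old against Young, 0.27 (SE 0.74) in Old OSK against Old control, 0.38 (SE 0.74) in Old control against Old and -0.15 (SE 0.61) in Old OSK against Young, none called. The second turned to -0.16 without Old control replicate 1 and to -0.23 with M as a covariate, and the third to -0.04 without Old control replicate 2. The fourth turned to 0.27 without Young replicate 2 and to 0.0093 without Young replicate 3. Slc3a2, the heavy chain that Slc7a11 pairs with in the membrane and that was picked after its values were seen, averaged 371.4 CPM in Young and 258 CPM with OSK (log2 fold change -0.53, SE 0.13; edgeR adjusted p = 0.00324).

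Some pairs of members moved together from library to library within groups, and the members were not sorted into sets. Correlations were taken over the 18 libraries after the group mean of log2 CPM had been subtracted, for all 45 pairs. They are given without a p-value, since the genes were selected on the same values. The 11 pairs named are those with an adjusted p under 0.05 when libraries were permuted within groups, a threshold used only to pick them. Slc7a11 and Gpx3 had Pearson's r = 0.96 and Spearman's rho = 0.92, and r = 0.90 without Young replicates 2 and 7, which lay farthest from the median. Gsr and Gpx4 had r = 0.93 and rho = 0.88, and r = 0.88 without Old control replicate 2 and Young replicate 7. Slc7a11 went against Gsr (r = -0.79, rho = -0.77) and against Gpx4 (r = -0.81, rho = -0.79). Ggt1 went with Gsr (r = 0.785, rho = 0.792) and with Gpx4 (r = 0.691, rho = 0.653). The first was 0.788 without Old control replicate 2 and Young replicate 7, and the second 0.555 without Old control replicate 2 and Old replicate 4. Gpx8 went with Gss (r = 0.631, rho = 0.612) and against Gclc (r = -0.649, rho = -0.674). Without Old OSK replicate 4 and Old replicate 4 the r of Gpx8 and Gss was 0.471. Without Old replicates 1 and 4 that of Gpx8 and Gclc was -0.642. Gss also went with Gpx3 (r = 0.529, rho = 0.544). Gclc and Gclm had r = 0.67 and rho = 0.72, and Gss and Gpx1 had r = 0.77 and rho = 0.67, falling to 0.61 and 0.60 without the farthest pair of libraries. All values of a library share its depth, RNA quality and cell makeup, and the part of these in the correlations was not tested.

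**Figure D3:**
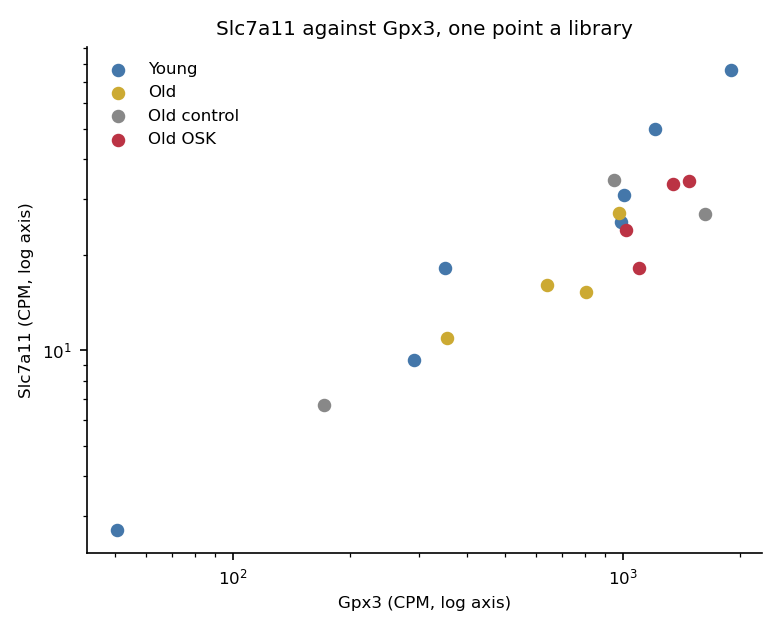
Slc7a11 against Gpx3 in CPM, both axes on a log scale, 1 point for each of the 18 libraries coloured by group. The points run from Young replicate 7 (50.6 and 2.7 CPM) to Young replicate 2 (1900 and 76.5 CPM), with the other groups between them.

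The lowest levels of Gpx3 also lay beside the highest RPE markers. The 4 libraries of all 18 with the lowest Gpx3 were Young replicate 7 (50.6 CPM), Old control replicate 1 (171), Young replicate 5 (292) and Young replicate 4 (350). These were the same 4 libraries that had the highest summed RPE markers, at 61720, 62260, 65470 and 55680 CPM in that order. Over the remaining libraries the order was not kept. Old control replicate 3 had 1630 CPM of Gpx3 beside an RPE sum of 53740 CPM. Young replicate 2, the highest for Gpx3 (1900 CPM), had a sum of 41690 CPM, while Old control replicate 2 had 948 CPM beside 20630 CPM. This was noticed after the values were seen and was not tested.

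Gsr, Gpx4 and Gpx8 were not called in any of the 4 comparisons. Gsr (chr8:33652523-33698163, plus strand) averaged 54.7 ± 9.89 CPM in Young, 47.7 ± 5.45 in Old, 50.7 ± 13.9 in Old control and 56.6 ± 2.83 in Old OSK. Old control replicate 2 (34.7 CPM) was the lowest of all libraries for Gsr, and the log2 fold change of Old OSK against Old control turned from 0.16 (SE 0.18) to -0.08 without it. Old against Young gave -0.20 (SE 0.15).

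Gpx4 (chr10:80047166-80056439, plus strand) averaged 1293 ± 286 CPM in Young, 1395 ± 136 in Old, 1754 ± 510 in Old control and 1656 ± 192 in Old OSK. Old control libraries had 2090, 1170 and 2010 CPM, and the lowest was again replicate 2. The log2 fold change was 0.11 (SE 0.18) in Old against Young, -0.08 (SE 0.22) in Old OSK against Old control, 0.33 (SE 0.22) in Old control against Old and 0.36 (SE 0.18) in Old OSK against Young. Without both rod-rich libraries the second was -0.38, not called. The sign of the second turned without Old control replicate 1 (0.06) or 3 (0.02). Among libraries without M alone the last was 0.51 and called higher. A processed pseudogene of Gpx4 is annotated, with which reads could be exchanged.

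Gpx8 (chr13:113042753-113046410, minus strand) averaged 50.7 ± 8.22 CPM in Young, 42.1 ± 5.21 in Old, 44 ± 5.14 in Old control and 48.2 ± 7.34 in Old OSK, with all groups overlapping. Its log2 fold change was -0.27 (SE 0.13) for Old and -0.08 (SE 0.13) for Old OSK, both against Young, 0.13 (SE 0.16) between the vector groups and 0.07 (SE 0.16) for Old control against Old.

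A list of 61 other genes of the pathway, ordered by role, was described beside the members. Of these 58 were tested, and Gpx5, Gpx6 and the Nnt row used had too few counts. In Old against Young 0 of 58 were called higher and 4 lower, which is 6.9% against 9.56% of all genes, and the median log2 fold change was -0.05. Genes called higher appeared in other fits: 3 higher and 4 lower with DESeq2, 3 and 4 without both rod-rich libraries, 2 and 2 in Young and Old alone, 1 and 3 without Young replicate 2, and 2 and 4 without Young replicate 3 or Old replicate 1. The 4 were Idh1, the cytosolic NADPH-making isocitrate dehydrogenase (-0.47, SE 0.11, edgeR adjusted p = 0.0172), Gpx7, a peroxidase of the endoplasmic reticulum (-0.59, SE 0.15, adjusted p = 0.024), Aldh1l1, a folate enzyme that makes NADPH (-0.50, SE 0.14, adjusted p = 0.0376), and Slc25a40, a mitochondrial carrier linked to glutathione import (-0.57, SE 0.17, adjusted p = 0.0458). All Old libraries lay below all Young libraries for Idh1 and Gpx7, and the groups overlapped for the others. Single libraries decided these calls. Idh1 was lost without Old replicate 2 (edgeR adjusted p = 0.0531) or 3 (0.0543), and Gpx7 without Old replicate 2 (0.0664), 3 (0.0561) or 4 (0.0999). Aldh1l1 was lost without Young replicate 1, 2, 5 or 6 and without Old replicate 2 or 4, and Slc25a40 without every single library but Young replicate 3 and Old replicate 1. For both the highest edgeR adjusted p of these fits came without Old replicate 4 (0.167 for Aldh1l1 and 0.197 for Slc25a40). Among libraries without M alone none of the 4 was called (edgeR adjusted p = 0.0929, 0.117, 0.108 and 0.173 in the order above), nor with M as a covariate (edgeR adjusted p = 0.05, 0.0675, 0.0806 and 0.0761).

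Between Old OSK and Young 16 of the 58 were called higher and 17 lower, which is 56.9% against 46.4% of all genes, with a median log2 fold change of -0.09. Among those higher, the lowest p belonged to the glutaredoxin Glrx3 (0.88, SE 0.14, edgeR adjusted p = 0.000208), the pentose phosphate enzymes G6pdx (0.87, SE 0.15, adjusted p = 0.000463) and Pgd (0.56, SE 0.11, adjusted p = 0.00108), which make NADPH, and Esd, a hydrolase of S-formylglutathione (0.45, SE 0.09, adjusted p = 0.000859). Lap3, an aminopeptidase (0.75, SE 0.15, adjusted p = 0.00122), and the glutaredoxin Glrx (1.08, SE 0.23, adjusted p = 0.00178) followed. Among those lower, the lowest p belonged to Lrp8, a selenoprotein P receptor (-1.50, SE 0.26, adjusted p = 0.000394), Chac2, which degrades glutathione in the cytosol (-1.06, SE 0.22, adjusted p = 0.00158), Slc25a40 (-0.79, SE 0.17, adjusted p = 0.00179) and malic enzyme Me1 (-0.83, SE 0.18, adjusted p = 0.00197). Glo1, a glyoxalase (-0.46, SE 0.11, adjusted p = 0.00256), and Aldh1l1 (-0.61, SE 0.14, adjusted p = 0.00266) followed. By role, glutathione transport had 0 higher and 4 lower of 6, cysteine supply 1 higher and 3 lower of 5, breakdown 5 higher and 2 lower of 12, and NADPH supply 3 higher and 3 lower of 11. Glutaredoxins and glyoxalases had 3 higher and 1 lower of 8, and other peroxidases with selenoprotein synthesis 3 higher and 4 lower of 11. Of the 5 transcription factors 1 was called higher, Nfe2l2, which encodes NRF2 (0.44, SE 0.12, edgeR adjusted p = 0.00828), named after its value was seen.

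Between the vector groups 0 of 58 were called in edgeR, against 0.728% of all genes, and the median log2 fold change was -0.09. At an unadjusted p under 0.05 were 25 of the 58 and 4194 of the 15944 genes tested. DESeq2 called 7 of the 58 and 1603 genes in all. With the replicate number as a block, and so without Old OSK replicate 4, 1 of the 58 was called, higher, beside 461 genes in all. The nearest were Lap3 (0.85, SE 0.19, edgeR adjusted p = 0.0518), G6pdx (0.71, SE 0.20, adjusted p = 0.072), Lrp8 (-1.11, SE 0.29, adjusted p = 0.0707) and Glo1 (-0.37, SE 0.13, adjusted p = 0.101). Without Old control replicate 2, 15 of the 58 were called (4 higher, 11 lower), beside 2881 genes in all. Without Old OSK replicate 4, 9 of the 58 were called (7 higher, 2 lower), beside 1738 genes in all. Lap3, G6pdx and Lrp8 passed under either omission and without both rod-rich libraries (edgeR adjusted p = 0.0185, 0.0136 and 0.00471 in the last). Lap3 also passed without Old control replicate 3 (edgeR adjusted p = 0.0497) and Glo1 without Old OSK replicate 4 (edgeR adjusted p = 0.0266). In Old control against Old 0 of 58 and 0% of all genes were called, and DESeq2 called 0 of 58. At an unadjusted p under 0.05 were 1 of the 58 and 596 of the 15944 genes tested. The nearest were the mitochondrial glutaredoxin Glrx5 (0.36, SE 0.18), the glyoxalase Hagh (0.25, SE 0.12), the dipeptidase Cndp2 (-0.25, SE 0.11) and the aminopeptidase Anpep (-1.19, SE 0.66), each with an edgeR adjusted p = 0.9.

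**Figure D4:**
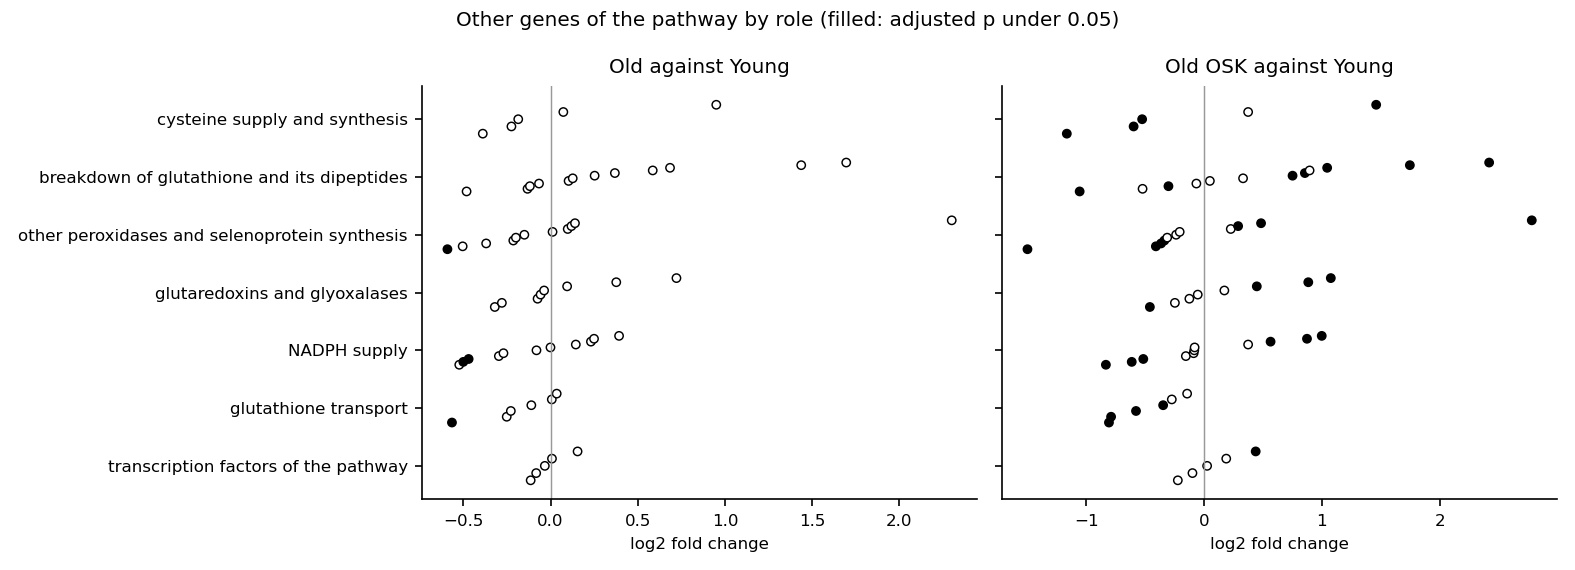
Fitted log2 fold change (horizontal axis) of the 58 other pathway genes by role (rows) in Old against Young and in Old OSK against Young, filled where the adjusted p was under 0.05. In the first panel 4 points were filled, all left of 0, and in the second 33, of which 16 lay right of 0.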

How the data were processed

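PolyA RNA was extracted with TRIzol, amplified with the SMART-Seq v4 kit and made into Nextera XT libraries, per the labels' protocols. The authors deposited raw counts per gene for all 18 libraries in 1 table. STAR 2.7.1a and featureCounts 1.6.2 are named in the submitters' processing notes, which list GRCm38 (mm10) and GRCh38 (hg38) without a role. Annotation and strand setting are not given in the sources used here. Loci come from GENCODE M21.

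Columns were matched to libraries by title. Of the table's rows 1096 were at 0 in every library, and for 2 listed genes with a repeated symbol the first row was used. Counts were filtered (filterByExpr, minimum count 10, minimum total 15), scaled by TMM and fitted in edgeR 4.0.16 (R 4.3.3) by quasi-likelihood with 4 group means over all 18 libraries. Adjustment was by Benjamini-Hochberg over all genes tested, and called means an adjusted p under 0.05. CPM values are scaled by TMM. The fit was also run on simulated counts in which every gene had the same spread beyond counting error. In the real libraries the SD within groups ran from 0.145 for Gclc to 1.37 for Gpx3 on the log2 scale. That run cannot show how the fit performs on such genes, and nothing is read from it. P-values measure the spread between these libraries only, and intervals from counts would cover counting error only, as reads carry no molecular identifiers. Members and lists were chosen with earlier results of these data known. Pathway genes were named by p: up to 6 called in each direction, otherwise the 2 nearest. Genes outside this rule are marked where named. Some genes whose pattern was close to that of a member are not reported here.

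Replicates differed by a chi-square per gene of at least 21.2, and none was merged. Between the vector groups, libraries with the same replicate number in their titles deviated together from their means across genes (r = 0.103, 0.421 and 0.339). These numbers served as pairs only in the alternative fit with a replicate block, and the main fit was unpaired. The block fit held only libraries whose number occurs in both groups compared. It left out Old OSK replicate 4 between the vector groups and Young replicates 5 to 7 in the comparisons with Young. In Old control against Old it left out Old replicate 4. No label states this pairing. No r of differently numbered libraries is given here for comparison, so these values cannot establish a pairing. For Old OSK and Young, r was also positive for every shared number (0.0209, 0.154, 0.0913 and 0.352). The remaining comparisons had values of both signs. Alternatives were median-ratio size factors, no filter, a mean of at least 50 counts, DESeq2 1.42.0, M as a covariate, the compared groups alone, a replicate block, libraries without M alone and each library left out.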

Additional observations from a re-analysis of the deposited data

Results flagged for a closer look

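Gpx8 in Old OSK replicate 4 (37.1 CPM) stood far from the other 3 libraries of its group (51.7 to 52 CPM): its gap to the nearest was 0.981 of the range of the group. It is the Old OSK library with M in its name and with the most rod transcripts, whose part in the value was not tested. Of 30 groups of member values examined this way 1 was picked out, where chance alone picks about 1 in 20.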

How the results depend on the processing

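Of 700 recomputed log2 fold changes of members, 699 moved by less than the SD of libraries within groups. That margin is wide (1.37 for Gpx3 and 1.19 for Slc7a11 on the log2 scale) and takes in lost calls and changes of sign. The count is therefore no measure of how firm the values are. The value that moved further was Gpx4 in Old OSK against Old control, which was -0.38 without both rod-rich libraries. In Old against Young 1524 genes were called in edgeR, 2452 with DESeq2, 600 with M as a covariate, 363 among libraries without M alone, 0 with a replicate block, 2704 without both rod-rich libraries, and 393 (without Old replicate 4) to 2140 (without Old replicate 1) when a library was left out. The members called were 3, but 2 with median-ratio size factors, with no low-count filter or with M as a covariate. They were 0 with the block, 1 among libraries without M alone, and 2 or 3 when a library was left out. Other pathway genes called were 4, but 3 with median-ratio size factors, 2 with no filter and 2 at a mean of at least 50 counts. With DESeq2 7 were called (3 higher), and without both rod-rich libraries 7 (3 higher). With M as a covariate, with the block or among libraries without M alone 0 were called. Leaving out 1 library gave 0 (without Old replicate 2) to 6 (without Young replicate 3). In Old OSK against Old control 116 genes were called (65 higher, 51 lower), and with median-ratio size factors 64 higher and 29 lower. DESeq2 called 1603, the fit with M as a covariate 58 and that of these groups alone 2. With a replicate block, which also left out Old OSK replicate 4, 461 were called, beside 1738 without that library alone. Without both rod-rich libraries 3856 were called. Leaving out 1 library gave 13 (without Old control replicate 1) to 2881 (without Old control replicate 2). Members called there were 0, but 3 with DESeq2, 4 without both rod-rich libraries and 0 to 2 when a library was left out (2 without Old control replicate 2 or Old OSK replicate 4). Other pathway genes called were 0, but 1 at a mean of at least 50 counts, 7 with DESeq2, 1 with the block, 23 without both rod-rich libraries and 0 to 15 when a library was left out (15 without Old control replicate 2). The block fit changed no other count of calls between the vector groups. In Old against Young it left out Young replicates 5 to 7. The part of the block and that of the omitted libraries in its counts were not told apart. In Old against Young the r of equally numbered libraries had both signs (-0.0497, -0.0191, 0.144 and -0.193). In Old OSK against Young the totals of genes, members and other pathway genes called, taken over both directions, stayed within 1.5 times those reported, while the 17 other pathway genes called lower were 11 among libraries without M alone and 11 without Old OSK replicate 2. In Old control against Old every count was 0 in every fit. The causes of these changes were not tested. With 3 to 7 libraries in a group, the spread between libraries rather than the count of a member limits the precision.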

Other observations

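Some genes whose deviations from the group means followed those of a member most closely over the 18 libraries were looked up after the data had been seen, among genes above a mean of 3 on the log2 CPM scale. For Gpx3 the nearest was Fbln1, a matrix glycoprotein (r = 0.98, 26.4 to 635 CPM in Young). For Slc7a11 the nearest were Col9a2 (r = 0.99, 2.31 to 37.9 CPM) and Fat4 (r = 0.98, 3.82 to 34.4 CPM), and Col9a2 was also among the 5 nearest to Gpx3 (r = 0.98). For Ggt1 the nearest was Slc39a12, a zinc transporter (r = 0.94, 230 to 319 CPM in Young). For Gss it was Ifi35 (r = 0.95), for Gpx1 Ppia (r = 0.97), for Gpx4 Park7 (r = 0.98) and for Gsr St3gal4 (r = 0.97). These are descriptions over libraries that share depth, RNA quality and cell makeup, with no test.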
